A study of Mus musculus with 21 samples.

Results

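Early primitive ectoderm-like (EPL) cells of the mouse embryonic stem cell line A2 were compared with naive cells of the same line, across all genes. The comparison rests on 6 of the 21 RNA sequencing libraries of the series, 3 from EPL cells and 3 from naive cells, and these were taken by their labels alone. Both cultures started from A2 ground-state cells, which had grown in DMEM with 10% fetal bovine serum, β-mercaptoethanol, antibiotics, 1000 U/mL leukaemia inhibitory factor (LIF) and the inhibitor mixture named 2i. Naive cells were collected 4 days after 2i had been taken away. EPL cells were collected after 4 days in a serum medium that is listed without 2i, with LIF lowered to 330 U/mL and 400 uM L-proline added. LIF and proline therefore changed together, and an effect of one cannot be told apart from an effect of the other. A2 is described as a line from the inner cell mass of the preimplantation embryo. Beside the 6 libraries, levels are given for A2 ground-state cells and for A2 epiblast stem cells (EpiSCs), which came from A2 cells implanted in a mouse and were grown in medium with basic fibroblast growth factor and activin A, and changes for naive and EPL cells of a second line, D3, each from 3 libraries. D3 naive cells had 1000 U/mL LIF, and D3 EPL cells had 330 U/mL LIF with 400 uM L-proline. Both are listed with 10% serum and at 4 days after the ground state. LIF and proline thus changed together in D3 as well. The labels do not say whether the 3 libraries of a group came from independent cultures. The p-values and standard errors therefore reflect only the spread between libraries within groups, which may be technical. That spread was estimated over all 21 libraries in 7 groups, unless a fit with only the libraries compared is named.

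LIF binds a receptor made of LIFR and gp130 (Il6st), which activates JAK kinases and the transcription factor STAT3. STAT3 in turn sustains naive factors such as Klf4 and Tfcp2l1, which hold mouse embryonic stem cells in the state of the preimplantation epiblast. EPL cells are a culture model of the primitive ectoderm, the epithelial epiblast that forms around implantation, and they are known for losing naive factors and gaining Fgf5, Otx2 and Dnmt3b while they keep the core factor Pou5f1. Proline is taken up from the medium by amino acid carriers, is made inside the cell from glutamate, and is burnt in the mitochondrion by proline dehydrogenase. ATF4, a transcription factor translated when amino acids are short, switches on many genes of amino acid synthesis and uptake.

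Total counts were between 16600682 and 20468946 in the 6 libraries. The first principal component of log2 CPM (counts scaled to a common library size) over these libraries carried 57.7% of the variance and split the groups, with naive libraries from -35.5 to -33.3 and EPL libraries from 28.0 to 43.3. EPL replicate 1 lay furthest out, and on the second component (15.2%) it lay at -29.1 against 17.6 and 18.0 for the other EPL libraries. Without that library 4582 genes were called, 4332 of them among the 5440 called with it, and results that rest on it are also given without it. Where a value without a library is given, that library alone was left out. Pairs of replicates had Pearson correlations of log2 CPM across genes between 0.990 and 0.993. The markers Pou5f1, Sox2, Nanog, Sall4 and Zfp42 of pluripotent cells summed to between 3541 and 3822 CPM in naive and between 3024 and 3096 CPM in EPL libraries. Both cultures thus carried markers of pluripotent cells, and this sum does not check the naive or EPL label itself.

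Of 16575 genes tested, 5440 (32.8%) were called at an adjusted p below 0.05 by edgeR's quasi-likelihood test, 2778 (16.8%) higher and 2662 (16.1%) lower in EPL cells. At least 2-fold changes were fewer, with 490 genes higher and 681 lower, and 92 rose and 121 fell at least 4-fold. The 3 EPL libraries all lay above the 3 naive libraries for 23.2% of genes and all below them for 22.3%, so the groups did not overlap for 45.6%. The median log2 change over all genes was 0.00. These shares are the background against which the counts within each gene list below are read. The lists were chosen with earlier results of these data known, so their counts describe the members and test nothing. Levels are CPM scaled with TMM factors, in the order of replicates 1, 2 and 3, and changes are log2 fold changes of EPL over naive with their standard error. CPM is not divided by gene length, so levels are compared between samples and not between genes.

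**Figure D1:**
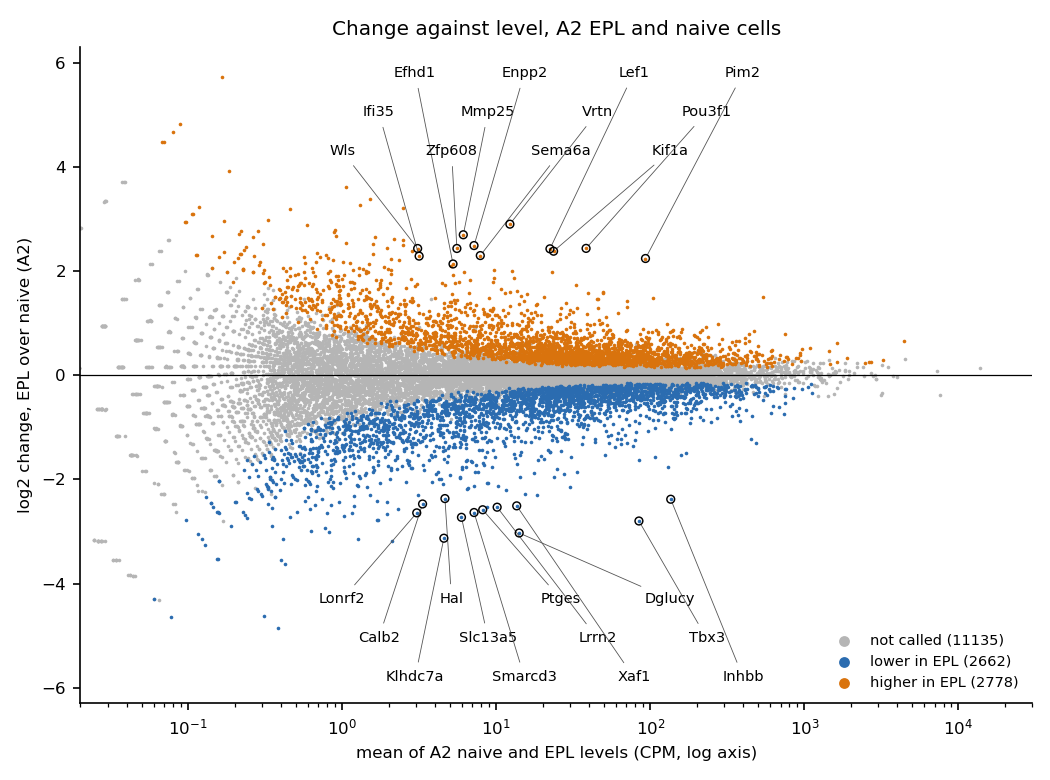
Change against level for all 16575 genes tested. The horizontal axis is the mean of the A2 naive and EPL levels in CPM on a log axis, and the vertical axis the log2 change of EPL over naive; grey points are genes not called, blue points the 2662 called lower, orange points the 2778 called higher, and the labelled points are the genes with the largest rises and falls by the rule for named genes.

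The 12 steepest rises by the rule for named genes were in genes of mixed function. Vrtn, a nuclear protein known for its link to the number of vertebrae (ENSMUSG00000071235, GRCm38 chromosome 12, 84641019 to 84651455), was at 2.59, 2.79 and 3.27 CPM in the naive libraries and at 19.4, 24.7 and 20.8 CPM in the EPL libraries. Its rise of 2.90 ± 0.14 (edgeR adjusted p = 5.19e-12) was the largest of the 12, and the groups were far apart in every library. Pou3f1, the POU factor also called Oct6 (ENSMUSG00000090125, GRCm38 chromosome 4, 124656807 to 124660655), went from 11.5, 11.4 and 12.9 to 68.3, 66.9 and 58.5 CPM, a rise of 2.43 ± 0.14 (adjusted p = 3.8e-11). Lef1, a DNA-binding partner of β-catenin, went from 6.23, 6.91 and 7.80 to 26.6, 40.5 and 45.7 CPM (2.43 ± 0.20). Of the 3 EPL libraries replicate 1 was the lowest for Lef1, but it still lay above every naive library. Pim2, a survival kinase, went from 31.3, 31.9 and 34.3 to 188, 147 and 125 CPM (2.24 ± 0.12).

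Mmp25, a membrane-anchored matrix metalloproteinase, rose by 2.70 ± 0.15 and Enpp2, which makes lysophosphatidic acid, by 2.49 ± 0.26. Zfp608, a zinc finger gene, rose by 2.43 ± 0.23, Wls, the carrier that brings Wnt proteins to the cell surface, by 2.43 ± 0.33, and the semaphorin Sema6a by 2.30 ± 0.20. Ifi35, an interferon-induced gene, rose by 2.29 ± 0.26 and Efhd1, a mitochondrial calcium-binding protein, by 2.13 ± 0.23. Kif1a, a motor of vesicle transport, rose by 2.38 ± 0.28, with EPL levels of 62.5, 31.1 and 24.9 CPM against 7.50, 5.24 and 9.99 CPM in naive cells. For Kif1a replicate 1 was the highest EPL library by a wide margin, and all 3 lay above the naive libraries. In A2 EpiSCs, Vrtn stood at 24.5 CPM and Mmp25 at 10.8 CPM, near their EPL levels, whereas Enpp2 was at 0.765 CPM there.

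Among the steepest falls was a single transcription factor of the naive network, Tbx3, beside enzymes and membrane proteins. Tbx3 (ENSMUSG00000018604, GRCm38 chromosome 5, 119670669 to 119684724) was at 146, 145 and 151 CPM in naive and at 21.8, 20.0 and 21.7 CPM in EPL libraries, a fall of 2.80 ± 0.08 (edgeR adjusted p = 6.02e-16). Within each group its libraries were within a few CPM of each other. Klhdc7a, a kelch-repeat protein, fell from 8.01, 7.99 and 8.63 to 0.768, 1.12 and 0.905 CPM (-3.13 ± 0.18) and Dglucy, which acts on D-glutamate, from 24.8, 25.2 and 25.2 to 1.77, 3.96 and 3.44 CPM (-3.03 ± 0.18). Inhbb, the β-B chain of activin and inhibin, fell from 239.9, 233 and 209 to 28.3, 47.1 and 55.6 CPM (-2.38 ± 0.15). Inhbb was also lower in A2 ground-state cells, at a mean of 33.7 CPM, so that its naive level was the highest of the 4 A2 groups. The citrate carrier Slc13a5 fell by 2.73 ± 0.15, the chromatin remodelling subunit Smarcd3 by 2.64 ± 0.17, the prostaglandin E synthase Ptges by 2.58 ± 0.18 and Lonrf2 by 2.64 ± 0.23. Lrrn2 fell by 2.53 ± 0.18, the apoptosis regulator Xaf1 by 2.51 ± 0.12, the calcium-binding protein Calb2 by 2.47 ± 0.27 and Hal, which starts histidine breakdown, by 2.37 ± 0.19.

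In the LIF receptor pathway more genes were called lower than higher in EPL cells. Of 22 tested, which were the ligand, receptors, JAK kinases, STATs, phosphatases, an adaptor and PIAS and SOCS inhibitors, 10 fell, 2 rose and 10 were not called (median log2 change -0.18). At the receptor, Lifr fell from 88.8, 77.8 and 89.7 to 43.0, 63.7 and 65.8 CPM (-0.57 ± 0.14, edgeR adjusted p = 0.00238), while Il6st, its gp130 partner, was at -0.16 (adjusted p = 0.286) and not called. Lif itself fell by 0.74 ± 0.19. Downstream, Jak1 fell by 0.31 ± 0.09, Stat5b by 0.75 ± 0.15 and Stat3 by 0.29 ± 0.08. Stat3 was at 165, 149 and 161 CPM in naive and 115, 138 and 134 CPM in EPL libraries, and the groups did not overlap. The 2 that rose were the phosphatases Ptpn11 (0.25 ± 0.09) and Ptpn6 (0.28 ± 0.11), and the number higher was 0 (without EPL replicate 1 or 2 or with scaling to the total count) and 1 (without naive replicate 2 or 3 or with the replicate number as a block). The call of Jak1 was lost without naive replicate 1 (adjusted p = 0.0612).

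Targets of LIF and STAT3 fell further. Of 20 tested, 15 fell, 2 rose and 3 were not called, with a median of -0.46 beside 0.00 over all genes. Socs3, the feedback inhibitor of the receptor complex, was at 188, 181 and 175 CPM in naive and at 81.8, 87.1 and 97.9 CPM in EPL libraries, a fall of 1.03 ± 0.12 (edgeR adjusted p = 1.35e-06). Klf4, a Krüppel-like factor induced by STAT3, went from 203, 189 and 207 to 50.9, 62.5 and 63.4 CPM (-1.76 ± 0.10, adjusted p = 5.14e-11). Tfcp2l1, a grainyhead-like factor downstream of STAT3, went from 745, 599 and 735 to 297, 290.4 and 249.8 CPM (-1.31 ± 0.13, adjusted p = 1.61e-07). For each of these 3 genes the EPL libraries all lay below the naive libraries. Both Klf4 and Tfcp2l1 were also lower in naive than in ground-state cells, whose means were 329 and 2266 CPM. Smad7, an inhibitor of TGF-β signalling that STAT3 also regulates, fell by 1.30 ± 0.11 and the AP-1 gene Junb by 0.68 ± 0.08. The 2 that rose were Cebpd (0.76 ± 0.22) and the tight junction gene Ocln (0.47 ± 0.17), and Cish (-0.08), Icam1 (-0.07) and Ier3 (0.30) were not called. The rise of Cebpd was not called without naive replicate 3 (adjusted p = 0.0731), nor that of Ocln without any 1 of naive replicates 1 and 3 or without any 1 of EPL replicates 1 and 3 (adjusted p of 0.06 to 0.153). Without EPL replicate 1 13 of the 20 fell.

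STAT3 binds the palindrome TTCCNGGAA. It was present on either strand in 3 of 16 list genes with a RefSeq promoter entry (18.8%), from 250 bases before to 50 after the start site (build GRCm38.p6), in 1.48% of the 11954 tested genes with an entry and in 1.15% of all 32851 promoters. Among tested genes with an entry, 1.41% of those lower in A2 EPL cells and 1.27% of those higher held it. Of the 3 list genes with a match, Sbno2 fell, and Icam1 and Cish were not called. A match is a description of the letters and not evidence of binding. The windows of Sbno2 and Icam1 lie wholly upstream of the start and are printed on the strand of the gene, with the match in capitals. They show that the same letters stand in a gene that fell and in one that was not called.
Sbno2 (chr10:80101188-80101231, minus strand, match from 24 bases before the start, lower): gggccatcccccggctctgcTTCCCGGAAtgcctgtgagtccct
Icam1 (chr9:21015878-21015926, plus strand, match from 42 bases before the start, not called): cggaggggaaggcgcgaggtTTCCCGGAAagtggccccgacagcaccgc
Sbno2, a corepressor induced by STAT3, went from 81.5, 63.7 and 71.8 to 61.6, 62.7 and 54.4 CPM (-0.28 ± 0.08), and was named for its match. Its call was lost without naive replicate 1 or without EPL replicate 3 (adjusted p of 0.0807 to 0.112).

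Among 24 naive pluripotency factors and markers 17 fell, 0 rose and 7 were not called (median -0.54). Beside Tbx3, Klf4 and Tfcp2l1, falls were called for the adhesion molecule Jam2 (246, 225 and 229 to 70.0, 83.8 and 88.3 CPM, -1.53 ± 0.08) and for Prdm14, which represses epiblast genes (29.3, 32.2 and 27.7 to 15.5, 13.2 and 13.6 CPM, -1.08 ± 0.11). Pecam1, another adhesion molecule, fell by 0.94 ± 0.07 and Spp1, the secreted protein osteopontin, by 0.90 ± 0.07. The orphan nuclear receptor Esrrb was at 754, 724 and 784 CPM in naive and 528, 426 and 413 CPM in EPL libraries (-0.73 ± 0.11, edgeR adjusted p = 2.19e-05). Nanog, the homeobox factor, went from 505, 541 and 492 to 340.1, 313 and 322 CPM (-0.66 ± 0.08, adjusted p = 3.72e-06). Zfp42, also called Rex1, differed least among the named members that were called, at 988, 1057 and 1102 and 860.3, 859.8 and 905 CPM (-0.26 ± 0.09, adjusted p = 0.0313). The call of Zfp42 was lost without any 1 of naive replicates 2 and 3 or without any 1 of EPL replicates 1 and 2 (adjusted p of 0.0728 to 0.116). Not called were Klf2 (-0.08), Nr5a2 (-0.23), Tcl1 (-0.27) and the threonine dehydrogenase gene Tdh (-0.05), although Tcl1 was called lower without EPL replicate 1 or with no filter on low counts (log2 changes of -0.50 to -0.26, adjusted p of 0.00993 to 0.0312). The list thus ran from genes at a small part of their naive level to genes close to it. Without EPL replicate 1 16 of the 24 fell.

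Of 20 general pluripotency factors 4 rose, 2 fell and 14 were not called (median -0.01), a share of calls close to that of all genes. Pou5f1, which encodes Oct4, was at 1148, 1344 and 1195 CPM in naive and 1109.5, 1033 and 1080.2 CPM in EPL libraries (-0.19 ± 0.10, edgeR adjusted p = 0.155). Sox2 was at 497, 495 and 513 and 479.7, 471 and 459.7 CPM (-0.09 ± 0.07, adjusted p = 0.343). Neither was called. Sall4 and Foxd3 fell, by 0.33 ± 0.08 and 0.33 ± 0.12. The 4 that rose were the RNA-binding proteins Lin28a (0.57 ± 0.08) and Lin28b (0.66 ± 0.11), the repressor of Wnt targets Tcf7l1 (0.62 ± 0.07) and Dppa4 (0.34 ± 0.08). The fall of Foxd3 was not called without any 1 of naive replicates 1, 2 and 3, without EPL replicate 1 or with only the libraries compared in the fit (adjusted p of 0.0619 to 0.257).

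**Figure D2:**
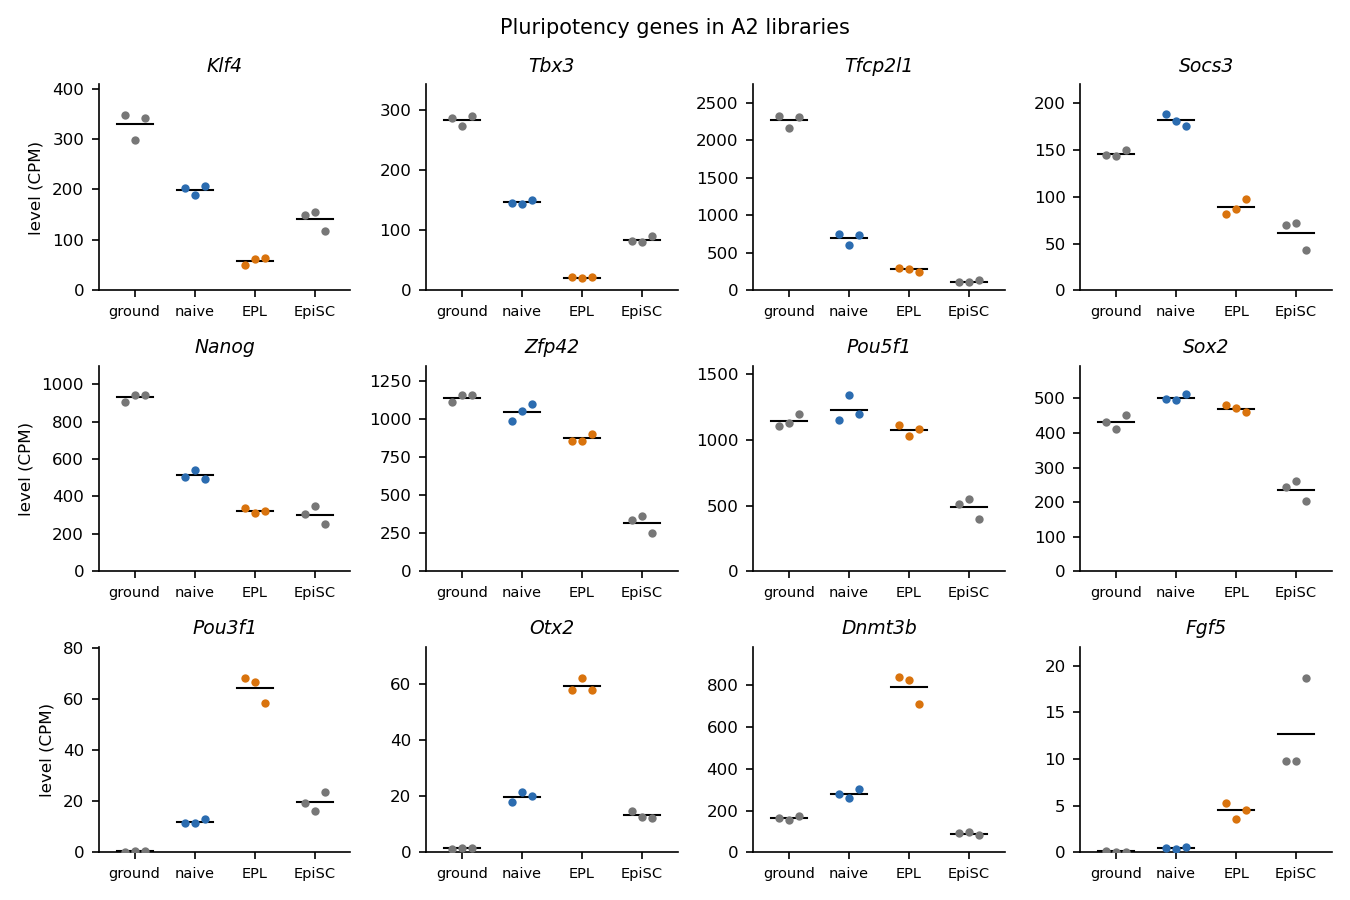
Levels of 12 pluripotency genes in each library of the 4 A2 groups. Each panel has its own vertical axis in CPM, starting at 0; points are libraries and bars are group means with n = 3 per group. Klf4, Tbx3 and Tfcp2l1 step down from naive to EPL, Pou3f1, Otx2 and Dnmt3b step up, and Pou5f1 and Sox2 differ little.

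Formative genes, which mark the epiblast just after implantation, were mostly higher in EPL cells. Of 24 tested 20 rose, 2 fell and 2 were not called, with a median of 1.11, and without EPL replicate 1 19 rose. Otx2, a homeobox gene of the epiblast after implantation (ENSMUSG00000021848, GRCm38 chromosome 14, 48657677 to 48673819), was at 17.8, 21.5 and 20.1 CPM in naive and 57.9, 62.0 and 57.6 CPM in EPL libraries (1.58 ± 0.11, edgeR adjusted p = 3.24e-10). Dnmt3b, a de novo DNA methyltransferase (ENSMUSG00000027478, GRCm38 chromosome 2, 153649450 to 153687730), went from 279, 259 and 304 to 839, 827 and 712 CPM (1.50 ± 0.08, adjusted p = 2.12e-11). Fgf5, the growth factor that defines the primitive ectoderm, was at 0.461, 0.343 and 0.634 CPM in naive and 5.31, 3.63 and 4.59 CPM in EPL libraries (3.21 ± 0.36, adjusted p = 5.71e-07). Its EPL libraries all lay above the naive ones, at a level that stayed below 6 CPM. The zinc finger factor Sall2 rose by 1.97 ± 0.11 and the SoxB1 factor Sox3 by 1.76 ± 0.19. Vrtn, Pou3f1, Lef1 and Pim2 of this list are among the 12 steepest rises described above. As the members were chosen with earlier results of these data known, the count of rises is a description only. The 2 that fell were Etv4, an ETS factor downstream of FGF signalling (-0.73 ± 0.08), and Sox12 (-0.23 ± 0.07), whose call was lost without naive replicate 2, without EPL replicate 3 or with no filter on low counts (adjusted p of 0.0509 to 0.0871).

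Set against the other A2 groups, EPL cells did not lie between naive cells and EpiSCs for every gene. Mean levels of Otx2 were 1.48 ± 0.337 CPM (SD, n = 3) in ground-state cells, 19.8 ± 1.86 in naive cells, 59.2 ± 2.47 in EPL cells and 13.2 ± 1.31 in EpiSCs. Those of Dnmt3b, in the same order of groups, were 165 ± 8.52, 281 ± 22.8, 793 ± 70.1 and 90.4 ± 5.94 CPM. Both genes thus had their highest level of the 4 groups in EPL cells, and the EPL libraries did not overlap with any other. Klf4 was lowest in EPL cells, at 58.9 ± 6.95 CPM against 141 ± 19.9 CPM in EpiSCs, and so was Tbx3, at 21.2 ± 0.989 against 84.7 ± 5.63 CPM. Fgf5 was higher in EpiSCs (12.7 ± 5.14 CPM) than in EPL cells (4.51 ± 0.845 CPM), and Pou5f1 and Zfp42 were lower, at 489 ± 80.2 and 317 ± 56.5 CPM. These levels across groups are a description, with no test. Markers of other cell types were summed only in the naive and EPL libraries, so the cell make-up of the EpiSC libraries was not examined.

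Markers of primed EpiSCs rose more often than they fell. Of 19 tested 9 rose, 2 fell and 8 were not called (median 0.63). Cldn6, a claudin of the early epiblast epithelium, went from 17.6, 18.5 and 17.4 to 51.6, 40.7 and 35.5 CPM (1.26 ± 0.13), and the zinc finger factor Zic2 from 15.4, 14.7 and 16.7 to 38.3, 43.3 and 40.6 CPM (1.38 ± 0.12). The carbonic anhydrase Car4 rose by 1.75 ± 0.23, Igfbp5 by 1.48 ± 0.39 and Epha1 by 1.29 ± 0.17. The ephrin receptor Epha4 fell by 0.85 ± 0.13. For the primed list the number lower was 1 without naive replicate 1 or 3, without EPL replicate 1, 2 or 3 or with the replicate number as a block.

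Of 13 markers of the primitive streak and mesendoderm tested 1 rose and 1 fell (median -0.13). Hhex, a homeobox factor of anterior endoderm, was at 4.15, 4.61 and 4.73 CPM in naive and 5.49, 6.48 and 5.79 CPM in EPL libraries (0.40 ± 0.14), and Kdr, a VEGF receptor, went from 3.34, 2.74 and 4.19 to 0.354, 1.34 and 1.69 CPM (-1.60 ± 0.35). Nodal, which is also in this list, had means of 91.4 ± 7.28 and 83.5 ± 4.25 CPM (SD, n = 3). The other 10, T, Eomes and Mixl1 among them (-1.03, -0.03 and 0.26), had means of at most 2.46 CPM in either group and were not called. T was called lower without EPL replicate 2 (log2 change -1.95, adjusted p = 0.0349). The call of Hhex was lost without any 1 of naive replicates 1 and 2, without any 1 of EPL replicates 2 and 3, with no filter on low counts or with only the libraries compared in the fit (adjusted p of 0.0533 to 0.124).

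**Figure D3:**
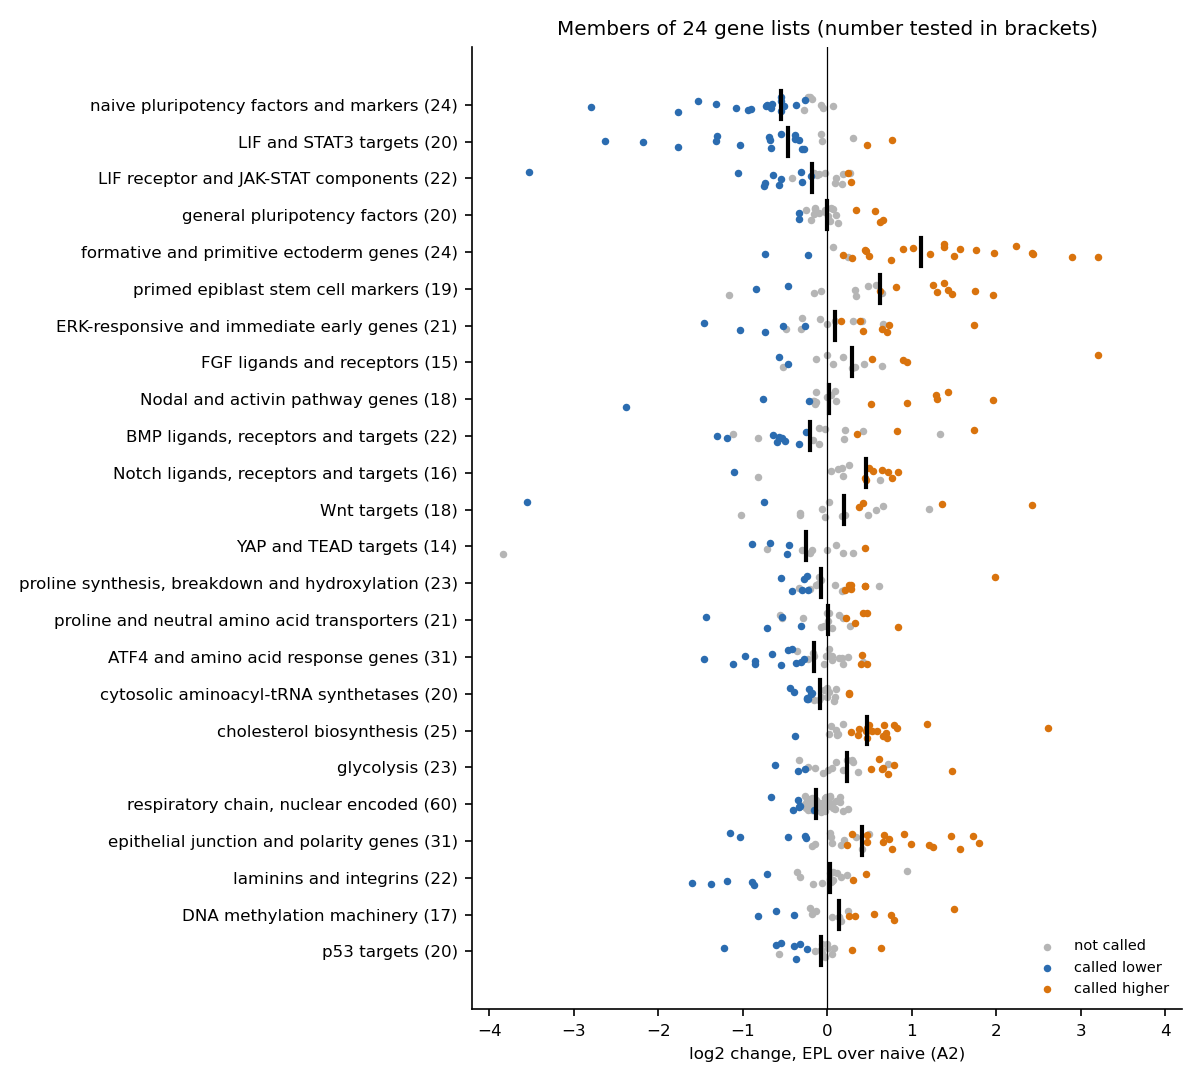
Log2 change of EPL over naive in A2 for the tested members of 24 gene lists. Each point is 1 gene, orange where called higher, blue where called lower and grey where not called, and the black bar is the median of the list. Formative genes lie mostly right of 0 and naive factors and LIF targets mostly left. Respiratory chain genes lie close to 0, with more of them left of it than right.

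Within FGF and ERK signalling, feedback genes and ligands moved in both directions. Of 15 FGF ligands and receptors tested 4 rose and 2 fell (26.7% and 13.3%, against 16.8% and 16.1% of all genes). Beside Fgf5, the ligand Fgf15 rose by 0.90 ± 0.14, the receptor Fgfr2 by 0.53 ± 0.12 and the decoy receptor Fgfrl1 by 0.94 ± 0.15, while Fgf17 fell by 0.47 ± 0.08. For the FGF list the number lower was 1 without naive replicate 1 or 3, without EPL replicate 1 or 2 or with the replicate number as a block. Fgf4, the main FGF ligand of embryonic stem cells, was at 0.07 and its receptor Fgfr1 at -0.13, neither called. Of 21 genes that respond to ERK 7 rose and 5 fell (median 0.09). The phosphatase Dusp4 went from 14.3, 14.7 and 16.3 to 65.9, 45.2 and 40.3 CPM (1.74 ± 0.18, edgeR adjusted p = 2.27e-07), and the feedback inhibitors Spry4 and Spry1 rose by 0.73 ± 0.10 and 0.65 ± 0.14 (Spry1 by 0.43 without EPL replicate 1). Jun rose by 0.71 ± 0.19, while Fos fell by 1.45 ± 0.23, Phlda1 by 1.03 ± 0.19 and Spred1 by 0.52 ± 0.09. The rise of Jun was not called without EPL replicate 1 (adjusted p = 0.0703). Egr1, the most direct readout of ERK among immediate early genes, was at 62.3, 54.5 and 58.8 CPM in naive and 31.4, 56.1 and 54.4 CPM in EPL libraries (-0.31 ± 0.17, adjusted p = 0.17) and was not called, but it was called lower with no filter on low counts (log2 change -0.29, adjusted p = 0.0161). EPL replicate 1 was its lowest library, and with 1 library left out its log2 change ranged from -0.44 to -0.077.

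Nodal signalling acts in the epiblast through activin receptors and FOXH1, and Lefty1 and Lefty2 are its secreted inhibitors and targets. Of 18 genes tested 6 rose and 3 fell. Lefty1 went from 33.0, 55.2 and 34.3 to 169, 71.9 and 62.0 CPM (1.30 ± 0.29) and Lefty2 from 32.3, 48.8 and 33.4 to 146, 85.9 and 75.6 CPM (1.42 ± 0.24). For both, EPL replicate 1 was the highest library, and without it the rises were 0.72 and 1.08. Foxh1 rose by 1.28 ± 0.08 and the receptor Acvr2b by 0.95 ± 0.19, and the repressor Skil by 0.51 ± 0.10. Nodal itself was not called (-0.13 ± 0.07, edgeR adjusted p = 0.182), nor was its co-receptor Tdgf1 (0.10), and Pcsk6, a protease that matures Nodal, fell by 0.76 ± 0.11. BMP signalling, which works beside LIF in serum culture through Id genes, had 9 of 22 genes lower and 3 higher (median -0.21). The inhibitory Smads Smad7 and Smad6 fell by 1.30 ± 0.11 and 1.19 ± 0.15, the pseudoreceptor Bambi by 0.65 ± 0.13, the target Id3 by 0.60 ± 0.12, the signal carrier Smad5 by 0.57 ± 0.09 and the phosphatase Dusp9 by 0.53 ± 0.10. The 3 that rose were the target Msx1 (means of 0.240 ± 0.00794 and 0.809 ± 0.317 CPM, 1.73 ± 0.41), the ligand Bmp8a (0.82 ± 0.25) and the target Id1, from 87.1, 89.5 and 80.0 to 87.4, 132 and 107 CPM (0.35 ± 0.13), with groups that overlap. For the BMP list the number higher was 1 without naive replicate 2 or 3. The call of Id1 was lost without any 1 of naive replicates 1, 2 and 3 or without any 1 of EPL replicates 2 and 3. It was also lost with RLE scaling, with scaling to the total count, with a stricter filter on low counts or by DESeq2. Over all these fits its adjusted p was 0.0503 to 0.329. The call of Bmp8a was lost without any 1 of naive replicates 2 and 3 or without EPL replicate 3 (adjusted p of 0.0549 to 0.0691). Id2 was called higher without EPL replicate 3 (log2 change 0.33, adjusted p = 0.013). Id2 (0.21) and the receptors Bmpr1a (-0.10) and Bmpr2 (-0.16) were not called.

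Notch genes were higher on balance, with 8 of 16 higher and 1 lower (median 0.45). The ligands Dll3, Jag2 and Dll1 rose by 0.84 ± 0.20, 0.55 ± 0.12 and 0.49 ± 0.13. Hes1, the target that is also driven by LIF and BMP in these cells, fell from 24.6, 30.4 and 26.3 to 13.7, 12.5 and 11.8 CPM (-1.10 ± 0.11). Among 18 Wnt targets 4 rose and 2 fell (22.2% and 11.1%, against 16.8% and 16.1% of all genes). Beside Lef1, Nkd2 rose by 1.36 ± 0.30 and Tcf7 by 0.38 ± 0.11, Sp5 fell by 0.74 ± 0.25, and Axin2, the usual readout of the pathway, was at 0.02 (edgeR adjusted p = 0.962). Without EPL replicate 1 the rise of Nkd2 was 0.80. The call of Sp5 was lost without naive replicate 3 or without EPL replicate 1 (adjusted p of 0.0945 to 0.143), and that of Tcf7 without naive replicate 1 or without EPL replicate 1 (adjusted p of 0.0541 to 0.11). Of 14 genes tied to YAP and TEAD 4 fell and 1 rose. Ccn1 and Ccn2, secreted targets of YAP, fell by 0.89 ± 0.19 and 0.67 ± 0.15, and Amotl2, which binds YAP, by 0.48 ± 0.16, while Tead2 rose by 0.45 ± 0.08. For the YAP and TEAD list the number lower was 2 without naive replicate 1 or 3 or without EPL replicate 3. The call of Amotl2 was lost without any 1 of naive replicates 1 and 3 or without any 1 of EPL replicates 1 and 3 (adjusted p of 0.0561 to 0.0918).

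Proline was the amino acid added to the EPL medium, and the genes that make, break down and hydroxylate it moved in both directions. Of 23 tested 7 rose, 6 fell and 10 were not called (median -0.07). Aldh18a1, which makes the first committed intermediate of proline from glutamate, was at 89.7, 90.5 and 91.1 CPM in naive and 70.3, 68.5 and 65.1 CPM in EPL libraries (-0.41 ± 0.06, edgeR adjusted p = 2.23e-05). Pycr1, a mitochondrial enzyme of the last step, went from 34.4, 36.4 and 34.4 to 28.3, 20.9 and 23.1 CPM (-0.54 ± 0.13, adjusted p = 0.00322). For both genes the EPL libraries lay below the naive libraries. In breakdown, proline dehydrogenase Prodh was at 35.0, 32.8 and 32.1 CPM in naive and 41.7, 40.3 and 39.3 CPM in EPL libraries (0.28 ± 0.08, adjusted p = 0.0133), and Aldh4a1, the next enzyme, fell by 0.30 ± 0.08. Among prolyl hydroxylases, P4hb, the shared β subunit of the collagen enzyme and a disulfide isomerase, rose by 0.45 ± 0.07, while the catalytic subunits P4ha1 (-0.20) and P4ha2 (-0.14) were not called. The call of Prodh was lost without naive replicate 3 (adjusted p = 0.0572). Without naive replicate 3 only 2 of the 23 genes were called higher.

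Carriers of neutral amino acids were split as well, with 5 of 21 higher and 4 lower. Slc38a2, which encodes SNAT2, a sodium-coupled carrier of small neutral amino acids that include proline, was at 346, 316 and 351 CPM in naive and 585, 631 and 599 CPM in EPL libraries (0.84 ± 0.10, edgeR adjusted p = 1.56e-06). All 3 EPL libraries lay above the naive libraries. Slc6a7, a proline carrier known from nerve endings, fell from 3.34, 2.50 and 2.49 to 0.945, 0.782 and 1.33 CPM (-1.44 ± 0.31). The glutamine carrier Slc1a5 fell by 0.71 ± 0.07 and Slc38a4 by 0.54 ± 0.09, while Slc43a1 and Slc6a15 rose by 0.47 ± 0.14 and 0.42 ± 0.12. Slc7a5, a chain of the large neutral amino acid carrier, was at 0.06 and not called. The call of Slc43a1 was lost without naive replicate 2 (adjusted p = 0.0586), and that of Slc6a15 without EPL replicate 1 (adjusted p = 0.0645). The number higher was 3 of 21 without EPL replicate 1, without any 1 of the naive replicates, or with scaling to the total count.

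The targets of ATF4 and related amino acid genes were lower on balance. Of 31 tested 12 fell, 3 rose and 16 were not called (median -0.15). Asns, asparagine synthetase (ENSMUSG00000029752, GRCm38 chromosome 6, 7675169 to 7693254), was at 273, 305 and 269.5 CPM in naive and 192, 166 and 180.4 CPM in EPL libraries (-0.66 ± 0.08, edgeR adjusted p = 1.52e-06). Atf5, a related transcription factor, fell from 36.7, 40.4 and 37.9 to 12.9, 14.1 and 14.8 CPM (-1.46 ± 0.08, adjusted p = 3.78e-11) and Cth, which makes cysteine from cystathionine, from 140.3, 149.8 and 144 to 74.9, 82.4 and 82.7 CPM (-0.85 ± 0.07, adjusted p = 8.91e-09). In these 3 genes no EPL library reached the lowest naive library. Gdf15 fell by 1.11 ± 0.19, Nupr1 by 0.97 ± 0.18 and Atf3 by 0.86 ± 0.23. Atf4 itself, which is controlled mainly at translation, was at -0.17 (adjusted p = 0.0671) and not called, but it was called lower without naive replicate 1, with scaling to the total count or by DESeq2 (log2 changes of -0.22 to -0.17, adjusted p of 0.0284 to 0.0456). The 3 that rose were Ddit4, an inhibitor of mTORC1 (0.47 ± 0.11), Cebpg (0.41 ± 0.07) and Herpud1 (0.40 ± 0.11), and Chac1 (0.42), Slc7a11 (0.18) and Ddit3 (0.19) were not called. Chac1 was called higher without naive replicate 1, without EPL replicate 3 or with no filter on low counts (log2 changes of 0.43 to 0.58, adjusted p of 0.0129 to 0.0294).

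ATF4 acts with C/EBP proteins on a composite site whose core reads TGATGNAA. That core was searched in the same way. It was present in 9 of 27 genes of the ATF4 list that had an entry (33.3%), in 2.74% of the 11954 tested genes with an entry and in 3.97% of all 32851 promoters. Without EPL replicate 1 the list counts were 12 lower and 3 higher. The windows below show some of the 9 genes, members that fell and members that did not. They lie upstream of the start site and are on the strand of the gene, with the match in capitals. Left out are Slc7a11 and another gene, both not called, and a lower gene whose match begins after the start. TTGCATCA is the core on the opposite strand.
Asns (chr6:7693210-7693252, minus strand, match from 23 bases before the start, lower): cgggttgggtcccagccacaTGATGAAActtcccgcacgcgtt
Pycr1 (chr11:120643824-120643871, minus strand, match from 103 bases before the start, lower): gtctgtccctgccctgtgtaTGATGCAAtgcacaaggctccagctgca
Nupr1 (chr7:126625553-126625600, minus strand, match from 110 bases before the start, lower): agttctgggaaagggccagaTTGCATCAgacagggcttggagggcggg
Atf3 (chr1:191183416-191183463, minus strand, match from 110 bases before the start, lower): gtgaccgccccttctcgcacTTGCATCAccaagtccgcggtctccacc
Chac1 (chr2:119351029-119351076, plus strand, match from 193 bases before the start, not called): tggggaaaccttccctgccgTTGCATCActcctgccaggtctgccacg
Herpud1 (chr8:94386297-94386344, plus strand, match from 112 bases before the start, higher): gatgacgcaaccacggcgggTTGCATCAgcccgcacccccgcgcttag
The same core thus stood in the promoters of genes that fell, that rose and that were not called. Among all genes with an entry, 3.33% of those lower in A2 EPL cells and 2.26% of those higher held it.

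**Figure D4:**
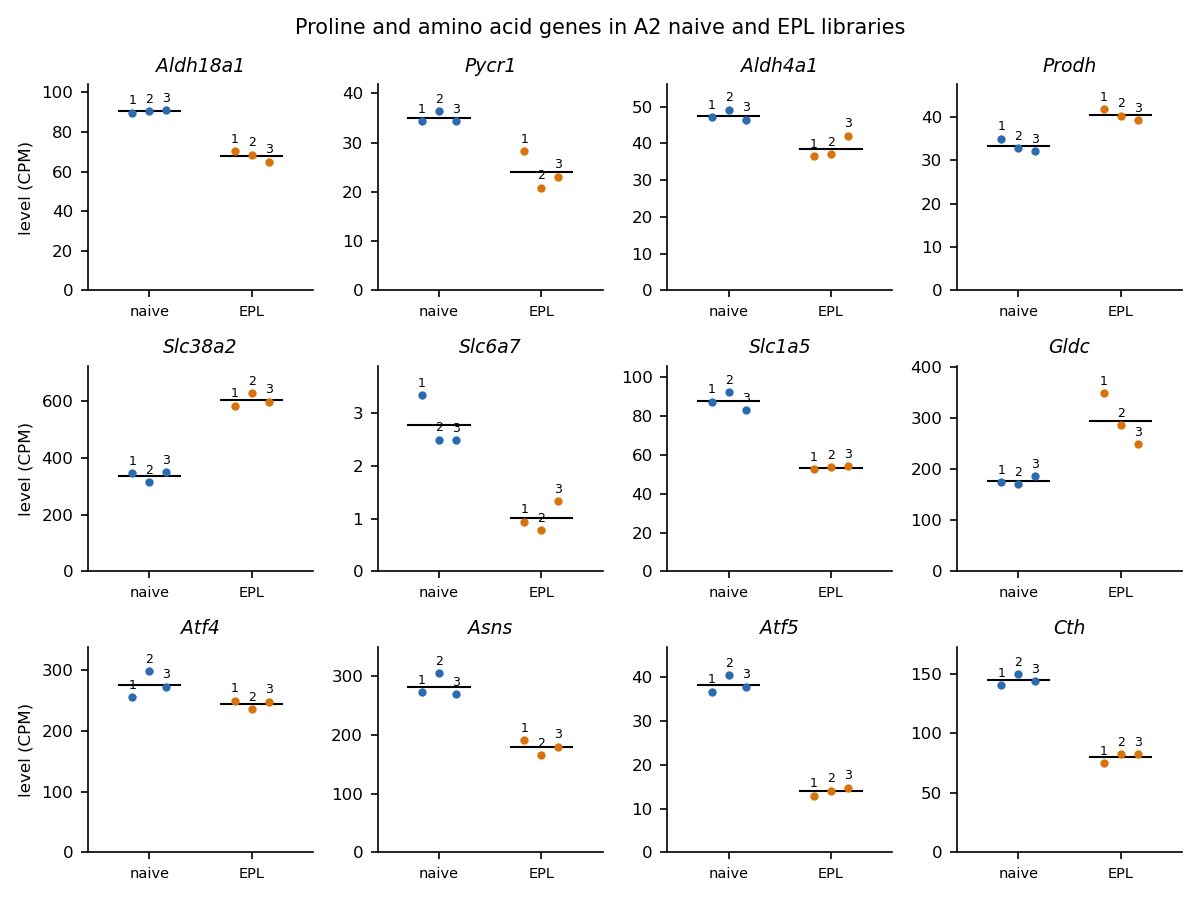
Levels of 12 genes of proline and amino acid metabolism in the 3 naive and 3 EPL libraries of A2. Each panel has its own vertical axis in CPM starting at 0; points are libraries, numbered by replicate, and bars are means. Asns, Atf5, Cth, Aldh18a1, Aldh4a1, Pycr1, Slc1a5, Slc6a7 and Atf4 are lower in every EPL than in every naive library, and Slc38a2, Prodh and Gldc are higher in every EPL library.

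Cytosolic aminoacyl-tRNA synthetases, several of which are ATF4 targets, showed small changes, with 8 of 20 lower, 2 higher. With no filter on low counts, or without EPL replicate 3, the number lower was 4. Cars fell by 0.44 ± 0.05, Eprs, which charges the tRNAs of glutamate and proline, by 0.40 ± 0.09, and Gars by 0.24 ± 0.07, while Vars and Qars rose by 0.26 ± 0.07 and 0.25 ± 0.06. Of 28 enzymes of serine, glycine and one-carbon metabolism 5 rose and 5 fell (17.9% each, close to the 16.8% and 16.1% of all genes). Gldc, the decarboxylase of the glycine cleavage system, went from 174, 170.1 and 186 to 349, 286 and 248 CPM (0.74 ± 0.09), and Ahcy and Mat2a, which serve the methylation cycle, rose by 0.48 ± 0.08 and 0.32 ± 0.07. Cbs, the enzyme before Cth in cysteine synthesis, fell by 0.45 ± 0.10, and Phgdh, the entry to serine synthesis, was at -0.03 and not called. For this list the number lower was 3 without EPL replicate 3.

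Genes of cholesterol synthesis were mostly higher in EPL cells. Of 25 genes 18 rose, 1 fell and 6 were not called (median 0.47), and 24 of the 25 log2 changes lay above 0. Insig1, the sterol sensor that restrains the pathway, went from 35.2, 39.9 and 37.3 to 95.2, 53.2 and 50.6 CPM (0.82 ± 0.19, edgeR adjusted p = 0.00241). Cyp51, Idi1, Fdps, Dhcr7 and Tm7sf2, enzymes of the same route, rose by 0.79 ± 0.14, 0.71 ± 0.14, 0.68 ± 0.17, 0.66 ± 0.16 and 1.18 ± 0.18. Ebp fell by 0.38 ± 0.12. EPL replicate 1 was the highest library for Insig1, and the groups did not overlap. Without it 13 of the 25 rose, with Insig1 at 0.47, Dhcr7 at 0.41 and Hmgcs1 at 0.30, and Fdps was not called (0.35). The call of Ebp was lost without any 1 of naive replicates 2 and 3 or without any 1 of EPL replicates 2 and 3 (adjusted p of 0.0542 to 0.0823). These genes are known targets of SREBP2, whose classical site TCACNCCAC was found in 1 of 17 list genes with an entry (5.88%) and in 1.47% of tested genes, again on both strands. The single match lies in the promoter of Hmgcs1, HMG-CoA synthase (0.46 ± 0.10), which was named for the match.
Hmgcs1 (chr13:119690194-119690242, plus strand, match from 137 bases before the start, higher): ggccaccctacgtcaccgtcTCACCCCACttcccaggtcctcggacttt
In fatty acid synthesis 8 of 17 genes rose and 3 fell (median 0.34). The desaturases Scd1 and Scd2 rose by 0.98 ± 0.23 and 0.98 ± 0.20, Fads2 by 0.68 ± 0.11, acetyl-CoA synthetase Acss2 by 0.60 ± 0.16 and fatty acid synthase Fasn by 0.46 ± 0.12. Without EPL replicate 1 6 rose, and the rises of Scd1 and Scd2 were 0.48 and 0.56. In the fatty acid list the number lower was 1 without naive replicate 3 or without EPL replicate 2.

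In glycolysis 7 of 23 genes rose and 3 fell (median 0.24). Slc16a3, the lactate exporter MCT4, went from 50.1, 63.6 and 51.5 to 165, 143 and 152 CPM (1.48 ± 0.32, edgeR adjusted p = 0.00129). Pgk1, Pfkl, Tpi1 and Ldha rose by 0.79 ± 0.18, 0.71 ± 0.18, 0.67 ± 0.19 and 0.61 ± 0.20, whereas Hk1, which traps glucose in the cell, fell by 0.62 ± 0.09 and Gapdh was at 0.11. The call of Ldha was lost without any 1 of naive replicates 1 and 3 or without EPL replicate 1 (adjusted p of 0.0663 to 0.0754). For glycolysis the number higher was 11 (with only the 6 libraries in the fit) and 12 (with no filter on low counts), and the number lower was 1 without naive replicate 1 or without EPL replicate 3. The number higher without EPL replicate 1 was 5.

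Targets of HIF, the factor that responds to low oxygen, gave 0 higher and 2 lower of 19. The call of a lower level was made for Vegfa (-0.77 ± 0.15) and Mxi1 (-0.35 ± 0.12). With unadjusted p-values below 0.05 edgeR picked 5 of the 19, and DESeq2 called 0 higher and 2 lower. For the HIF list the number higher was 5 with no filter on low counts or with only the 6 libraries in the fit, and the number lower was 1 without naive replicate 2 or 3 or without EPL replicate 2 or 3. The call of Mxi1 was lost without any 1 of naive replicates 2 and 3 or without any 1 of EPL replicates 2 and 3 (adjusted p of 0.0516 to 0.126). Nuclear genes of the respiratory chain had few calls, with 6 of 60 lower and 0 higher (10.0% called, against 32.8% of all genes). The log2 changes were small but mostly of one sign, with 45 below 0 and 15 above (median -0.13). The EPL libraries all lay below the naive libraries for 22 of the 60 genes and all above them for 1. Over all genes those shares were 22.3% and 23.2%. Of the 60, 12 had an unadjusted p below 0.05, and DESeq2 called 6 lower and 0 higher. The 6 were Ndufb8 (-0.67 ± 0.15), Ndufb4 (-0.41 ± 0.14), Sdhb (-0.34 ± 0.11), Cox4i1 (-0.34 ± 0.12), Cox5a (-0.32 ± 0.11) and Ndufs1 (-0.16 ± 0.06). For the respiratory chain the number higher was 1 without naive replicate 2, with no filter on low counts or with only the 6 libraries in the fit, and the number lower was 1 (without naive replicate 2 or without EPL replicate 2), 3 (without EPL replicate 3), 10 (with scaling to the total count) and 12 (with only the 6 libraries in the fit), and of the 6 genes named, 5 lost their call in at least 1 such fit (Ndufb8 did not). None of the 13 proteins encoded in the mitochondrion was called by edgeR or by DESeq2, although 5 had an unadjusted p below 0.05. Of their log2 changes 12 lay below 0, and the median was -0.39. In this list the number lower was 1 (without naive replicate 3, with RLE scaling or with the replicate number as a block), 8 (with only the 6 libraries in the fit) and 9 (with no filter on low counts). All mitochondrial transcripts took 1.80 to 2.49% of counts in naive and 1.37 to 1.92% in EPL libraries, ranges that overlap.

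Genes of the epithelium rose more often than they fell, 16 against 5 of 31 (median 0.42). Esrp1, which directs epithelial splicing, was at 24.3, 22.9 and 25.5 CPM in naive and 70.3, 69.5 and 62.0 CPM in EPL libraries (1.47 ± 0.09, edgeR adjusted p = 4.95e-11). Podxl, a sialomucin of the apical surface, went from 24.7, 21.7 and 27.8 to 77.8, 75.9 and 67.2 CPM (1.57 ± 0.11), Cldn7 from 2.54, 2.60 and 2.53 to 13.2, 7.04 and 6.52 CPM (1.80 ± 0.24) and the membrane protease Prss8 from 1.56, 1.86 and 3.02 to 9.33, 6.20 and 6.03 CPM (1.73 ± 0.22). In all 4 genes the groups did not overlap. The polarity gene Crb3 rose by 1.21 ± 0.24, but Cldn4 and the protease inhibitor Spint1 fell by 1.15 ± 0.14 and 1.04 ± 0.07. When EPL replicate 1 was left out 11 rose and the rise of Crb3 was 0.77, and the number lower was 2 (without naive replicate 1 or without EPL replicate 2 or 3) and 3 (without EPL replicate 1 or with the replicate number as a block). Of 16 mesenchymal genes 2 rose and 1 fell. N-cadherin Cdh2 and vimentin Vim rose by 1.39 ± 0.20 and 0.47 ± 0.14, and the repressor Zeb1 fell by 0.62 ± 0.12. Among the mesenchymal genes the number higher was 4 with no filter on low counts, and the number lower was 2 without EPL replicate 2, with scaling to the total count or with no filter on low counts. The call of Vim was lost without EPL replicate 3 (adjusted p = 0.0667).

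Laminins and integrins attach cells to the basement membrane. Of 22 such genes and linked ones 6 fell and 2 rose (36.4% called, against 32.8% of all genes), with 12 log2 changes above 0 (median 0.03). Here the number higher was 1 without naive replicate 2 or without EPL replicate 2 or 3. Itga3, an integrin chain that binds laminins, went from 93.4, 80.8 and 82.9 to 24.6, 36.0 and 38.7 CPM (-1.37 ± 0.18, edgeR adjusted p = 3.91e-06). Itgb3, Itgb4, Lama1 and Nid1 fell by 1.19 ± 0.19, 0.89 ± 0.12, 0.86 ± 0.21 and 0.71 ± 0.15, while Lamb2 rose by 0.46 ± 0.11. Of 20 collagens and collagen-handling genes 0 rose and 3 fell. Those that fell were the chaperone Serpinh1 (-1.06 ± 0.10), Col1a1 (-1.23 ± 0.31) and Col5a1 (-0.44 ± 0.16), and the basement membrane chain Col4a1 was at 0.06. With unadjusted p-values 5 of the 20 passed 0.05, and DESeq2 called 0 higher and 3 lower. For collagens the number higher was 1 without EPL replicate 3 or with no filter on low counts. The call of Col5a1 was lost without any 1 of naive replicates 1 and 3 or without any 1 of EPL replicates 1 and 2 (adjusted p of 0.0603 to 0.169).

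Among 17 genes of DNA methylation 6 rose and 3 fell (median 0.14), with the de novo enzymes among the higher and 2 of the 3 Tet genes, which oxidise the mark, among the lower. Beside Dnmt3b, Dnmt3a went from 146, 137 and 154 to 239.6, 243 and 257 CPM (0.76 ± 0.07) and their cofactor Dnmt3l from 315, 324 and 323 to 546, 589 and 532 CPM (0.79 ± 0.09). Tet1 went from 942, 688 and 864 to 422, 627 and 590.2 CPM (-0.61 ± 0.20, edgeR adjusted p = 0.0202) and Tet2 from 202, 157 and 191 to 78.9, 116 and 116 CPM (-0.82 ± 0.18). Tet3 rose by 0.55 ± 0.14, so the 3 Tet genes did not all move one way. The call of Tet1 was lost without any 1 of naive replicates 1 and 3 or without EPL replicate 1 (adjusted p of 0.058 to 0.122), and that of Mbd2 without EPL replicate 1 (adjusted p = 0.0704). Uhrf1, which guides maintenance methylation, rose by 0.33 ± 0.08, the methyl-binding protein Mbd2 fell by 0.39 ± 0.11, and Dnmt1 was at 0.17 and not called. For DNA methylation the number lower was 1 without EPL replicate 1. JmjC histone demethylases had a share higher close to that of all genes (3 of 19 higher, 0 lower): Kdm2a, Kdm2b and Kdm4c rose by 0.45 ± 0.11, 0.44 ± 0.08 and 0.40 ± 0.08. At an unadjusted p below 0.05 there were 3, and DESeq2 called 3 higher and 0 lower. Of 26 Polycomb genes 5 rose and 3 fell (19.2% and 11.5%, against 16.8% and 16.1% of all genes). Pcgf6 was among those that rose (0.45 ± 0.06), while Ezh2 (0.14) and Suz12 (0.08) were not called. For the Polycomb list the number higher was 3 without naive replicate 1 or 3 or without EPL replicate 3, and the number lower was 1 with no filter on low counts.

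Imprinted genes, expressed from 1 parental copy, were split with 10 of 33 higher and 6 lower (median 0.25). Peg10 rose from 342, 278 and 351 to 467, 568 and 453 CPM (0.62 ± 0.18), Snrpn by 0.64 ± 0.09, Phlda2 by 0.66 ± 0.16 and Magel2 by 1.85 ± 0.27. H19, a noncoding RNA of the maternal copy, fell from 7.32, 6.03 and 8.58 to 2.01, 2.74 and 2.11 CPM (-1.67 ± 0.25) and Mcts2 by 0.71 ± 0.11. The call of Peg10 was lost without naive replicate 2 or without EPL replicate 2 (adjusted p of 0.0618 to 0.0663), and without naive replicate 2 or without naive replicate 3 the number higher was 6 of 33.

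In the cell cycle lists, G1 regulators were split (7 of 24 higher, 6 lower). The cyclins Ccnd2 and Ccnd3 fell, Ccnd3 from 284, 289 and 283 to 140.0, 165 and 163 CPM (-0.87 ± 0.07, edgeR adjusted p = 4.62e-09) and Ccnd2 by 0.93 ± 0.19, while cyclin E1 (Ccne1) rose by 0.51 ± 0.09 and Ccnd1 was at -0.03. The CDK inhibitors Cdkn1a and Cdkn1b fell by 0.55 ± 0.13 and 0.51 ± 0.10, and Myc rose by 0.43 ± 0.09. Of 20 p53 targets 7 fell and 2 rose. Perp fell by 1.23 ± 0.15, Btg2 by 0.61 ± 0.10, Pmaip1 by 0.40 ± 0.09 and Ccng1 by 0.37 ± 0.11, whereas Mdm2 was at -0.07. Among 20 genes of oxidative stress 3 rose and 5 fell (15% and 25%, against 16.8% and 16.1% of all genes). Keap1 (-1.05 ± 0.08), Nqo1 (-0.97 ± 0.11) and Gpx1 (-0.76 ± 0.15) were lower and G6pdx (0.72 ± 0.07) and Hmox1 (0.60 ± 0.07) higher. Of 25 lysosome genes 10 rose and 6 fell, with Glb1 (0.87 ± 0.07), Ctsl (0.79 ± 0.13), Neu1 (0.72 ± 0.10) and Hexa (0.71 ± 0.09) among the higher and Manba (-0.71 ± 0.07) among the lower. Ctsl was at 0.51 without EPL replicate 1, and for lysosome genes the number lower was 3 without EPL replicate 2.

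Markers of other cell types were examined in the same libraries. The 18 fibroblast and stromal markers summed to between 1008 and 1241 CPM in naive and between 1300.4 and 1468 CPM in EPL libraries, nearly all of it Fn1 and Vim, which embryonic stem cells also express. In these 6 libraries S100a4, Postn, Lum, Twist2 and Prrx1 had at most 3 counts in all, and 2 of the 18 rose and 3 fell. The sum over 12 primitive endoderm markers was 91.8 to 141 CPM in naive and 80.4 to 149 CPM in EPL libraries, with Gata4 (0.29), Gata6 (-0.38) and Sox17 (-0.35) not called, Dab2 higher (0.90 ± 0.25) and Afp at no more than 3 counts. The call of Dab2 was lost without EPL replicate 2 (adjusted p = 0.0643). In the wider endoderm list, which adds matrix genes, 3 of 19 fell, Hnf4a (-1.16 ± 0.19), Lama1 and Sparc (-0.62 ± 0.11). For the fibroblast list the number higher was 0 (without EPL replicate 3) and 1 (without naive replicate 2 or 3), and for the wider endoderm list the number higher was 0 (without EPL replicate 2) and 2 (without EPL replicate 1 or with no filter on low counts), and the number lower was 5 without naive replicate 2 or with no filter on low counts. The part that such cells have in any result was not tested.

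Neural markers were split. The 6 neurectoderm markers fixed as the cell type check summed to between 46.4 and 52.0 CPM in naive libraries. In EPL libraries that sum was higher throughout, between 56.3 and 58.7 CPM. Of 9 neurectoderm genes tested in a wider list 3 rose and 4 fell. Sox1 went from 7.96, 6.52 and 9.11 to 1.30, 2.23 and 2.72 CPM (-1.91 ± 0.21), and Sox21, Tubb3 and Neurod1 fell by 0.69 ± 0.18, 0.39 ± 0.09 and 0.58 ± 0.13. Nestin (Nes), Map2 and Pax6 rose by 1.16 ± 0.19, 1.13 ± 0.17 and 1.003 ± 0.20. The 6 mesendoderm markers of the same check summed to 4.26 to 5.48 CPM in naive and 3.90 to 4.69 CPM in EPL libraries. The 5 trophoblast markers fixed as the cell type check together reached at most 2.54 CPM in any of the 6 libraries. In a wider list of 12 tested Peg10 (described above) and Ascl2, a factor of the placenta (0.56 ± 0.19), rose and the factor Tfap2c fell from 78.5, 74.9 and 81.3 to 65.0, 49.1 and 44.2 CPM (-0.57 ± 0.10), while Tead4 was at -0.18 and not called. For this list the number higher was 1 without naive replicate 1, 2 or 3, without EPL replicate 1 or 2 or with only the 6 libraries in the fit. Germline genes were lower in 9 and higher in 3 of 21 cases, with Ddx4 (-0.77 ± 0.12) and Dazl (-0.71 ± 0.16) among the lower and Tdrd12 (1.11 ± 0.07) among the higher. Of 14 genes of 2-cell-like cells 1 was called, Zscan4d (-0.83 ± 0.26), whose reads may be shared with near-identical copies. That call was lost without naive replicate 1 or without EPL replicate 1 (adjusted p of 0.0852 to 0.119), and the number lower was 0 (without naive replicate 1 or without EPL replicate 1), 2 (without naive replicate 2, without EPL replicate 3 or by DESeq2) and 3 (with no filter on low counts).

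The same comparison in D3, which shares no library with that in A2, called 7439 genes (44.9%), 24.4% higher and 20.4% lower. Of the 2778 genes higher in A2 EPL cells 1801 were also called higher in D3, 64.8% of the A2 list and 44.5% of the D3 list, and 91 were called lower there. Of the 2662 lower in A2, 1674 were lower in D3, 62.9% of the A2 list and 49.4% of the D3 list, and 95 were higher. The change itself was tested for a difference between lines in all genes, and 2106 (12.7%) were called, 5.93% with a higher and 6.78% with a lower change in A2. That test was called for 17.7% of the genes higher in A2 and 21.0% of those lower.

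**Figure D5:**
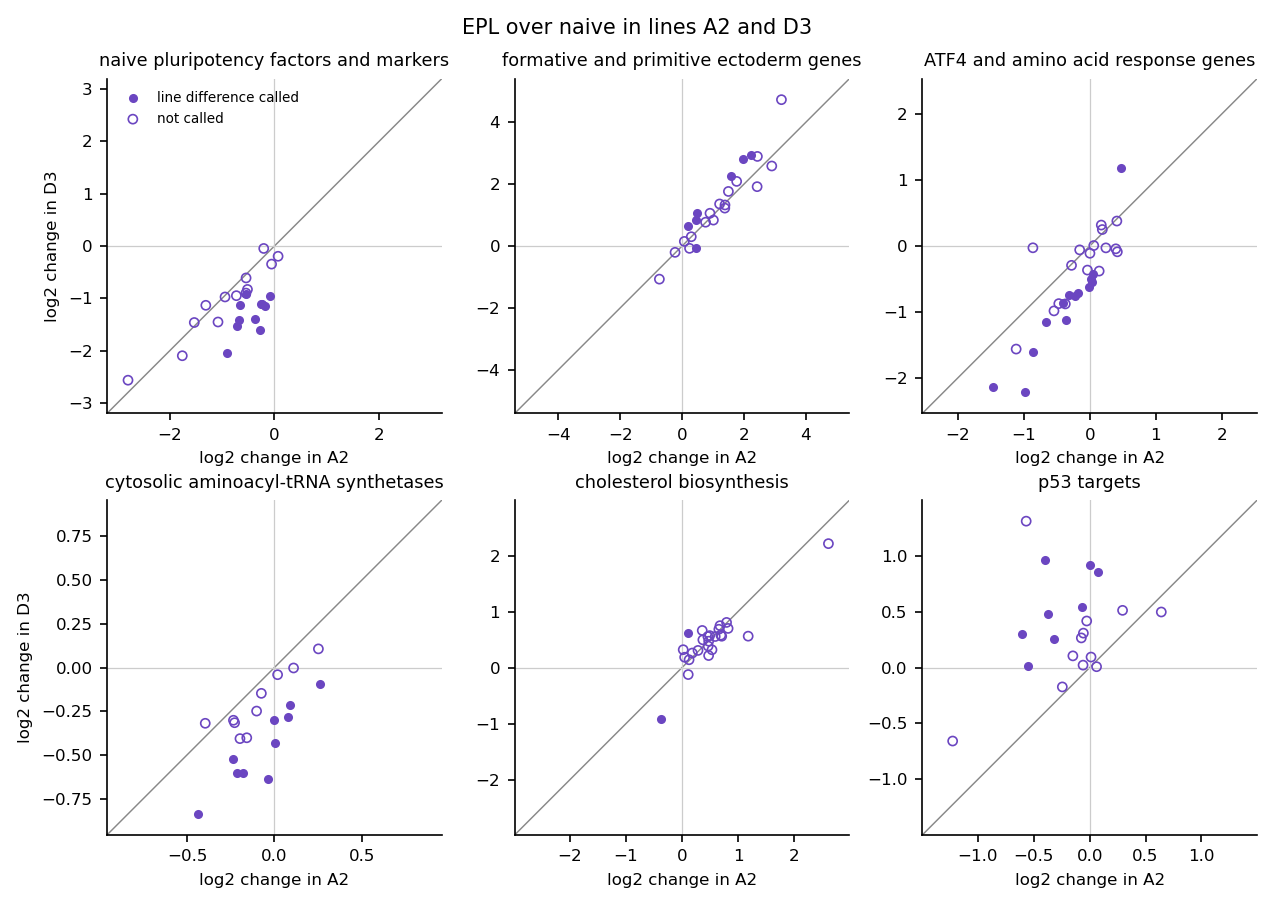
Log2 change of EPL over naive in A2 (horizontal axis) and in D3 (vertical axis) for members of 6 gene lists, 1 panel per list. Filled points are genes for which the difference between the lines was called, open points the others, and the diagonal marks equal change. Of the 24 naive genes 20 lie below the diagonal, as do 26 of 31 ATF4 and 19 of 20 synthetase genes, and 18 of 20 p53 targets lie above it.

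Of the 24 naive genes 11 had a called difference between the lines. In A2 Nanog fell by 0.66 and in D3 by 1.13 (difference of A2 minus D3 0.47, edgeR adjusted p = 0.0113). For Zfp42 the falls were 0.26 and 1.10 (0.84, adjusted p = 0.000172) and for Spp1 0.90 and 2.04 (1.14, adjusted p = 2.65e-07). Klf2, not called in A2, was at -0.96 in D3 (difference 0.89, adjusted p = 0.00206). For Klf4 (-1.76 in A2, -2.10 in D3), Tbx3 (-2.80, -2.57), Tfcp2l1 (-1.31, -1.13) and Esrrb (-0.73, -0.95) no difference between lines was called, with adjusted p of 0.141, 0.201, 0.596 and 0.377. Among the formative genes Otx2 rose by 1.58 in A2 and 2.26 in D3 (difference -0.69, adjusted p = 0.00317), while Dnmt3b (1.50 and 1.76) and Fgf5 (3.21 and 4.73) had no called difference (adjusted p = 0.132 and 0.0737).

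In the amino acid response 14 of 31 genes differed between lines. Asns fell by 0.66 in A2 and 1.15 in D3 (difference 0.49, edgeR adjusted p = 0.0048), Cth by 0.85 and 1.60 (0.75, adjusted p = 3.65e-05), and Atf4 was at -0.17 and -0.72 (0.55, adjusted p = 0.000853). Slc38a2, in contrast, rose by 0.84 and 0.82 with no called difference (adjusted p = 0.961). Cholesterol genes had a called difference in 2 of 25 cases. In p53 targets the 2 lines had opposite counts: 7 of 20 were lower and 2 higher in A2, against 2 lower and 12 higher in D3, and 8 had a called difference. Ccng1, a cyclin induced by p53, was at -0.37 in A2 and 0.48 in D3 (difference -0.85, adjusted p = 0.000823), Pmaip1 at -0.40 and 0.96 (-1.36, adjusted p = 6.46e-07). Ccn1 (-0.89 and 0.10) and Ccn2 (-0.67 and 0.50) fell in A2 and had values above 0 in D3, with differences of -0.998 and -1.18 (adjusted p = 0.0119 and 0.00054). Dnmt3l rose in A2 and was at -0.23 in D3 (difference 1.03, adjusted p = 1.04e-05).

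The 6 genes with the largest line differences by the rule for named genes went in both directions. Klhdc7a fell by 3.13 in A2 and was at -0.21 in D3 (difference -2.92, edgeR adjusted p = 9.27e-06). H19 fell by 1.67 in A2 and was at 0.62 in D3 (-2.29, adjusted p = 6.61e-05). Esam, an adhesion molecule of endothelium, rose by 1.02 in A2 and was at -1.24 in D3 (2.26, adjusted p = 1.06e-05). Tril was at -0.58 in A2, where it was called only without EPL replicate 2 (log2 change -0.89, adjusted p = 0.0163), and at -3.12 in D3 (2.54, adjusted p = 7.58e-05). Apol6 fell by 1.24 in A2 and was at -3.51 in D3 (2.27, adjusted p = 6.19e-05). The mitochondrial carrier Slc25a24 was at 0.24 in A2 and at 2.53 in D3 (-2.29, adjusted p = 0.00138).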

How the data were processed

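RNA from 21 libraries (TruSeq RNA Sample Prep Kit v2) had been sequenced, and the deposited values were raw read counts per Ensembl gene, made by the authors with HISAT2, SAMtools and featureCounts on build GRCm38, per the submitters' processing notes. Nothing on versions, annotation or strandedness is given in the sources used here, so reads of antisense pairs cannot be told apart. Groups came from the labels. Counts were analysed with edgeR 4.0.16 in R 4.3.3: TMM scaling, a filter on low counts (minimum 10, total 15), 1 mean for each of 7 groups, and quasi-likelihood tests with Benjamini-Hochberg adjustment over 16575 genes. The code was first tested on simulated counts. DESeq2 1.42.0 was an alternative. Of 39396 rows, 53 had no symbol in the reference table. Total counts bound the precision of low genes.

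The members and gene lists were chosen with earlier results of these data known. Genes were named by rule: the 12 largest rises and falls with no overlap between libraries and at least 5 CPM, up to 8 called and 4 uncalled members per list, a set of pluripotency and proline genes, and the 6 largest line differences. Cebpg, Ebp, Herpud1, Hmgcs1, Id1, Ocln, Ptpn11, Ptpn6, Sbno2 and Sox12 were named after their values were seen. Some list members are counted but not reported by name here. RefSeq promoters (GRCm38.p6) were matched by symbol.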

Additional observations from a re-analysis of the deposited data

Results flagged for a closer look

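Of the 277 genes named in the text 95 had a called difference between A2 and D3 in the change from naive to EPL cells (edgeR quasi-likelihood test of the difference, adjusted over all genes). The values below are A2 minus D3 on the log2 scale, for the genes whose difference the text gives, and a value above 0 stands for a smaller fall or a larger rise in A2. All 3 EPL libraries of 1 line were set against its 3 naive libraries in each change. A difference was called for 11 of the 24 naive genes, with 0.47 for Nanog, 0.84 for Zfp42, 0.89 for Klf2 and 1.14 for Spp1. Klf2 was not called in A2 itself, and for Klf4, Tbx3, Tfcp2l1 and Esrrb no difference was called. The amino acid genes Asns, Cth and Atf4 also had differences above 0, at 0.49, 0.75 and 0.55. Dnmt3l (1.03) was higher in A2 EPL cells and not in those of D3. Otx2 rose less in A2 (-0.69). The p53 targets Ccng1 (-0.85) and Pmaip1 (-1.36) and the YAP targets Ccn1 (-0.998) and Ccn2 (-1.18) fell in A2 and not in D3. The genes furthest apart were Klhdc7a (-2.92), H19 (-2.29), Slc25a24 (-2.29), Esam (2.26), Apol6 (2.27) and Tril (2.54). No cause of these differences was tested.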

How the results depend on the processing

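The number of genes called in A2 lay between 5184 and 5478 over 7 alternatives (other scaling, other filters on low counts, DESeq2, only the libraries compared, a replicate block) and between 4499 and 4761 when 1 library was left out, against 5440. No called gene of the 5440 changed sign where it was called again. In D3 the range was 6127 to 7448, and for the difference between lines 1525 to 2437. Of 277 genes named, 233 were called in A2, and 197 of them kept their call in every alternative. None of these reversed. Values near 0 that were not called did change sign: Axin2 was at -0.0023 with scaling to the total count. With 1 library left out, Axin2 ranged from -0.15 to 0.17, Ccnd1 from -0.072 to 0.043, Cish from -0.13 to 0.00089, Col4a1 from -0.25 to 0.33, Eomes from -0.19 to 0.28, Gata6 from -0.85 to 0.062, Klf2 from -0.15 to 0.026, Phgdh from -0.18 to 0.074 and Slc7a11 from -0.0081 to 0.30. The replicate numbers showed no sign of pairing in A2. Deviations from the group mean correlated across genes at -0.15, -0.14 and -0.03 for same-numbered libraries and at -0.04 to 0.15 for the others. With 3 libraries per group these correlations cannot settle whether the samples were paired. With the number as a replicate block 5184 genes were called. Low counts limit the precision for genes near 1 CPM, such as T and Fgf5 in naive cells.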
